A study of Mus musculus with 3 samples.

Results

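The clustered protocadherin locus was examined in mouse embryonic fibroblasts as an interval on chromosome 18, from 37050000 to 38020000 in build mm9. It was defined by coordinates, with no threshold on a measured value, and was divided into alpha (37050000 to 37370000), beta (37370000 to 37780000) and gamma (37780000 to 38020000). The interval held 2685 of the 6415372 fragments of each profile, of which 865 lay in alpha, 1137 in beta and 683 in gamma. The flanks of 1 Mb on each side held 2489 and 2474 fragments. Per the labels, wild-type fibroblasts of strain C57BL/6 received retroviruses for 1 of 3 Dam proteins, with 1 sample in each group: Dam fused to Lamin A (Dam-Lamin A), Dam fused to Lap2b (Dam-Lap2b) and unfused Dam (Dam Only). Cell passage, the age of the embryos and the level of each Dam protein were not given in the sources used here. Each library averaged many cells, so a value between high and low cannot be told apart from a mixture of cells with and without contact.

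Clustered protocadherins are cell-surface adhesion proteins of neurons. Each neuron expresses a small and largely random choice of most of them, and the resulting combination lets a neuron recognise its own branches. In alpha and gamma, each variable exon has its own promoter and is spliced to constant exons shared by the whole subcluster, while beta genes are single-exon genes. Fibroblasts are not neurons, and most genes of the locus are silent outside the nervous system. The nuclear lamina is a protein mesh under the nuclear membrane, and chromatin that contacts it, in lamina-associated domains (LADs), is usually silent. Lamin A is a filament protein of that mesh, and Lap2b, a splice form of the Tmpo gene, is a lamin-binding protein of the inner nuclear membrane.

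In RefSeq's gene table of build GRCm38.p6 the subclusters follow each other as alpha, beta and gamma. Alpha has 14 genes, from Pcdha1 to the C-type gene Pcdhac2, and beta has 22, from Pcdhb1 to Pcdhb22. Slc25a2, a mitochondrial carrier, and Taf7, a subunit of the general transcription factor TFIID, come next. Gamma has 22 genes, from Pcdhga1 to Pcdhgc5, with 12 of type A, 7 of type B and 3 of type C, of which the last, Pcdhgc3, Pcdhgc4 and Pcdhgc5, lie at its far end. The protein-coding genes just before the locus are Hars, Hars2 and Zmat2. Those just after it are Diaph1, an actin regulator, Hdac3, a histone deacetylase, and, a little further, Pcdh1, a protocadherin outside the clusters. That table has another build than the files, so only the order of genes was taken from it, and no bin is assigned to a single gene.

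DamID methylates adenine in GATC near the fused protein, and each value belongs to a fragment between neighbouring GATC sites. Column 4 of each profile is a log2 ratio of the fusion to a reference, presumed to be Dam alone. A fragment with equal recovered reads of fusion and reference has a value of 0.085 in the Dam-Lamin A profile and 0.022 in the other. The level of each Dam protein is also unknown, so 0 is a cut on the ratio and does not mark equal methylation. Whole numbers recovered from the ratios summed to between 139437512 and 153450263 reads a library, which are lower bounds. Values were averaged in bins of 10 kb with at least 5 fragments, 255936 in the genome, 97 in the locus and 100 in each flank. Errors given as SD are over bins, which are positions in 1 library and not replicates, so no difference below has a replicate check or a p-value. Profiles and LAD lists went together crosswise over the genome. Where a bin was listed for 1 fusion only, the mean over Lamin A bins less that over Lap2b bins was −0.42 in the Dam-Lamin A profile and 0.42 in the Dam-Lap2b profile, the opposite of their labels. Each profile and list is therefore named by its label and given beside the other. If the labels of the profiles were exchanged, every difference between the profiles would change sign. If only those of the lists were exchanged, these differences would keep their sign. Which of these holds, if either, was not tested.

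Most of the locus lay in 1 LAD in both lists, while neither flank held another listed domain. The LAD ran from 36980031 to 37907503 (927 kb) in the Dam-Lamin A list and from 36971162 to 37916714 (946 kb) in the Dam-Lap2b list. The former lay wholly inside the latter and made up 98.1% of it. Both began before the interval, by 69.97 kb and 78.8 kb, and both ended within gamma, 128 kb and 137 kb after its start. Alpha and beta were thus covered over their whole length, and gamma over 53.1% and 57.0% of its bases. By bins, 86 of 97 lay in the Dam-Lamin A list, where 54.6% of all bins of the genome did, and 87 of 97 lay in the Dam-Lap2b list, against 50.5% of all bins. In alpha this was 32 of 32 bins and in beta 41 of 41, in both lists. In gamma it was 13 of 24 bins in the Dam-Lamin A list (54.2%, exact Clopper-Pearson 95% interval 32.8 to 74.4% over bins) and 14 of 24 in the Dam-Lap2b list (58.3%, 36.6 to 77.9%). The listed bins form 1 block that ends at the edge of the LAD. They are not independent draws, so these intervals do not measure an error of the shares.

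**Figure D1:**
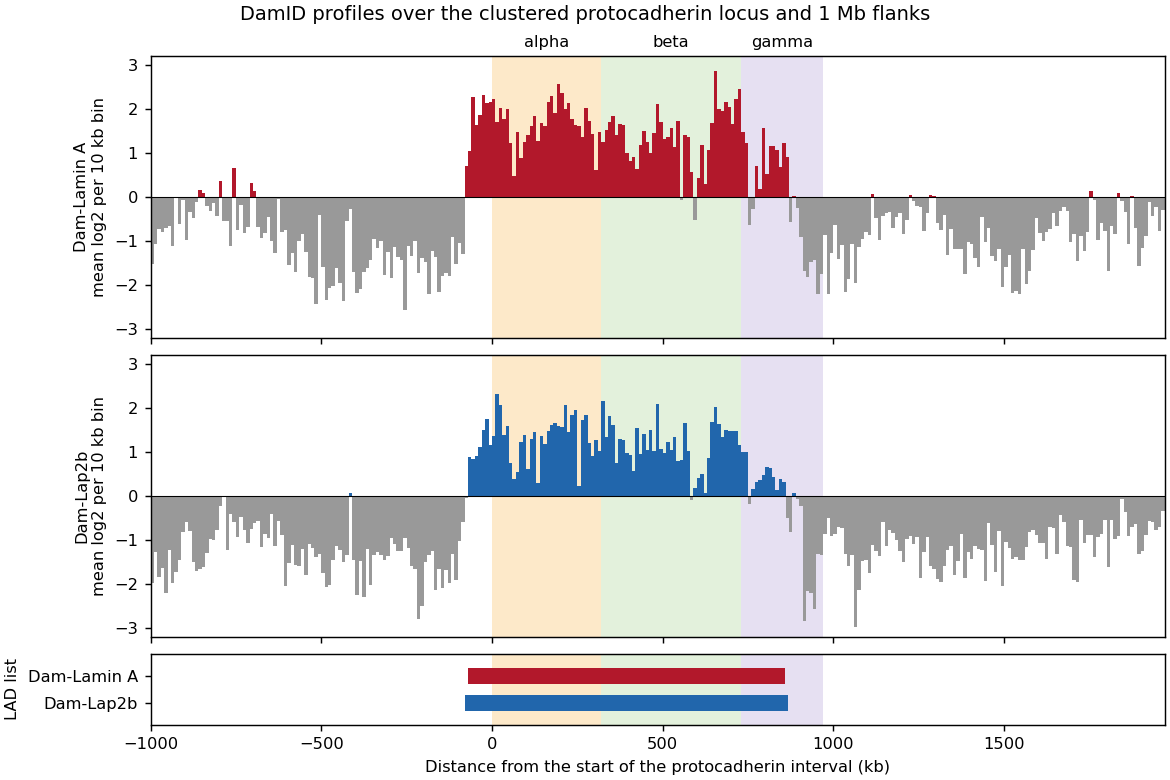
Mean log2 value per 10 kb bin (upper panels, y axis) for Dam-Lamin A and Dam-Lap2b against distance in kb from the start of the protocadherin interval (x axis), with bins above 0 in colour, bins below 0 in grey and the listed LADs as bars at the bottom. Shading marks alpha, beta and gamma. Alpha and beta stand above 0 almost throughout, with 32 of 32 and 39 of 41 bins in the Dam-Lamin A profile, and the flanks lie mostly below 0.

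The domain stood far from other LADs. In the Dam-Lamin A list the nearest LAD before it ended at 33818086, 3.16 Mb away, and the nearest after it began at 40050776, 2.14 Mb away. In the Dam-Lap2b list the neighbours ended at 34378187, 2.59 Mb before, and began at 40060454, 2.14 Mb after. Across that list the shorter of the gaps to the neighbouring LADs had a median of 50 kb, and 46.0 kb in the Dam-Lamin A list. Only 11 of the 2117 LADs of the Dam-Lamin A list with a neighbour on each side were as isolated by this measure, this one included, and 9 of 2334 in the other list. Of these, 2 and 3 were at least as long as the protocadherin LAD, again counting itself. Its length was above the medians of 328 kb and 292 kb, and 405 of 2159 and 338 of 2374 LADs (18.8% and 14.2%) were at least as long.

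**Figure D2:**
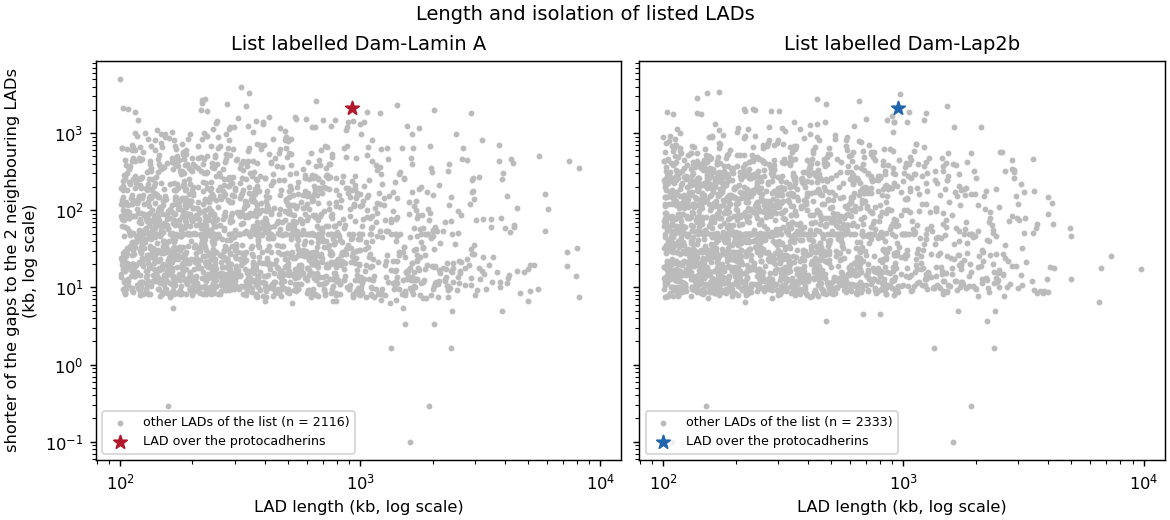
Length in kb (x axis, log scale) and the shorter of the gaps to the neighbouring LADs in kb (y axis, log scale) for every LAD with a neighbour on each side, with the Dam-Lamin A list on the left and the Dam-Lap2b list on the right. Grey points are LADs of the list and the star is the LAD over the protocadherins, which has a shorter gap of 2.14 Mb in both lists, near the top of each cloud.

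Alpha had the highest mean of the subclusters, beta came slightly lower and gamma was divided. In alpha the 32 bins of the Dam-Lamin A profile ranged from 0.48 through a median of 1.69 to 2.56, with a mean of 1.67 ± 0.48 (SD over bins). In the Dam-Lap2b profile they ranged from 0.24 through 1.38 to 2.31, with a mean of 1.33 ± 0.52. Every alpha bin was therefore above 0 in both profiles, beside 55.2% of all bins of the genome in the Dam-Lamin A profile and 59.3% in the Dam-Lap2b profile. With each profile centred on its genome-wide median, the alpha share was 100% in the Dam-Lamin A profile and 90.6% in the Dam-Lap2b profile. With bins of 5 kb it was 98.4% and 96.9%.

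In beta the 41 bins ran from −0.52 through 1.41 to 2.86 in the Dam-Lamin A profile, with a mean of 1.37 ± 0.66. In the Dam-Lap2b profile they ran from −0.089 through 1.22 to 2.15, with a mean of 1.17 ± 0.52. Above 0 were 39 and 40 of the 41 bins. With each profile centred on its genome-wide median, the shares of beta bins above 0 were 95.1% and 90.2%. The difference between alpha and beta was 0.30 and 0.16, smaller than the SD over the bins of either subcluster, and the ranges overlapped widely. The 50 kb on each side of their border differed by less than the SD over their bins, with 1.45 before and 1.54 after it in the Dam-Lamin A profile and 1.248 and 1.54 in the Dam-Lap2b profile.

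Gamma averaged −0.049 ± 1.21 and −0.34 ± 1.14 over 24 bins, with 13 bins above 0 in each profile (54.2%). With each profile centred on its genome-wide median, the share was 45.8% in the Dam-Lamin A profile and 20.8% in the Dam-Lap2b profile. Beta exceeded gamma by 1.42 in the Dam-Lamin A profile and by 1.51 in the Dam-Lap2b profile, and every alternative kept this order. The mean hides a division within gamma. The 13 bins in both lists averaged 0.77 ± 0.67 and 0.44 ± 0.33, while the 10 bins in neither list averaged −1.21 ± 0.74 and −1.35 ± 1.07. Because the lists and the profiles belong to the same libraries, this division is a description. The part of gamma inside the LAD had lower means than alpha and beta, and its highest bin stood at 1.55 in the Dam-Lamin A profile and at 1.008 in the Dam-Lap2b profile.

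**Figure D3:**
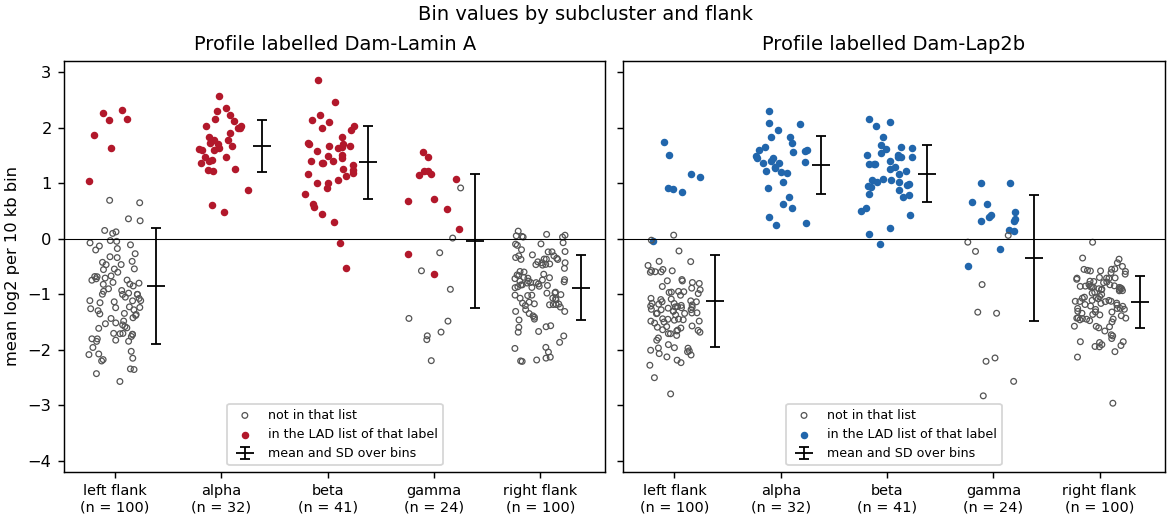
Mean log2 value of each 10 kb bin (y axis) in the left flank, alpha, beta, gamma and the right flank (x axis) with Dam-Lamin A on the left and Dam-Lap2b on the right. Filled points lie in the LAD list of the same label and open points do not, and bars give the mean and SD over bins. Alpha and beta have means of 1.67 and 1.37 in the Dam-Lamin A profile, and gamma spreads from 1.55 to −2.20.

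Within the listed domain the profiles had shallow places that the lists bridged. Runs of consecutive bins above 0 of at least 100 kb numbered 3 in each profile. In the Dam-Lamin A profile they covered 36970001 to 37600000 (630 kb, mean 1.57), 37650001 to 37800000 (150 kb, mean 1.64) and 37820001 to 37920000 (100 kb, mean 0.92). In the Dam-Lap2b profile they covered 36980001 to 37630000 (650 kb, mean 1.28), 37640001 to 37800000 (160 kb, mean 1.11) and 37810001 to 37910000 (100 kb, mean 0.39). The breaks between runs fell at like places in both profiles, in the second part of beta and near the start of gamma. No run of that length lay in either flank apart from the first one, which starts before the interval.

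The break in beta lay at different bins in the profiles. In the Dam-Lamin A profile it began with the bin at 37600001, at −0.077, which had 0.81 in the Dam-Lap2b profile, and the following bins at 37610001 and 37620001 were above 0 in both. The bin at 37640001 was the lowest of beta in the Dam-Lamin A profile, at −0.52, and had 0.19 in the Dam-Lap2b profile. The bin just before it, at 37630001, was the lowest of beta in the Dam-Lap2b profile, at −0.089, and had 0.57 in the Dam-Lamin A profile. From summed reads, the Dam-Lamin A ratio at 37600001 was −0.21 (95% exact binomial interval −0.50 to 0.089). At 37640001 it was 0.067 (−0.12 to 0.25). The Dam-Lap2b ratio at 37630001 was 0.14 (−0.076 to 0.36). Each interval covers counting error only and includes 0, so the sign of these bins is not settled. From 37630001 to 37690000 the highest bin was 1.18 in the Dam-Lamin A profile and 0.87 in the Dam-Lap2b profile. Beyond it both profiles rose again, and the bin at 37700001 was the highest of the whole locus in the Dam-Lamin A profile, at 2.86, with 2.03 in the Dam-Lap2b profile. That bin held 1377 and 931 recovered reads of the fusions and 229 of the reference.

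The other break lay near the start of gamma. The last 50 kb of beta averaged 2.10 in the Dam-Lamin A profile and 1.42 in the Dam-Lap2b profile, and the first 50 kb of gamma averaged 0.50 and 0.46. The fall took place within gamma, after bins of 1.47 and 1.22 in the former profile. At 37800001 the bin stood at −0.64 in the Dam-Lamin A profile and at −0.19 in the Dam-Lap2b profile, and the next bin at −0.28 and 0.16. Slc25a2 and Taf7 lie between beta and gamma in gene order. Whether they lie in these bins was not tested.

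Alpha had a milder dip. The bin at 37110001, the lowest of alpha in the Dam-Lamin A profile, stood at 0.48, and at 0.38 in the Dam-Lap2b profile. The highest alpha bin of the Dam-Lamin A profile, at 37240001, stood at 2.56, and at 1.597 in the Dam-Lap2b profile. The Dam-Lap2b profile had its own extremes there, with 2.31 at 37060001 and 0.24 at 37300001, where the Dam-Lamin A profile had 1.70 and 1.604. Across the 32 bins of alpha the profiles had a Pearson correlation of 0.53, against 0.67 in beta, 0.86 in gamma and 0.88 over the genome. A correlation depends on the spread of the values. The SD over bins was 0.48 and 0.52 in alpha and 1.21 and 1.14 in gamma, which crosses the edge of the LAD. The order of the correlations therefore does not rank how well the profiles match. The bins share the reference reads in both ratios, which by itself makes the profiles move together, so these values are a description.

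At the listed borders the step was larger at the start of the domain than at its end. At the listed start of the Dam-Lamin A list, the 50 kb inside exceeded the 50 kb outside by 2.64 in the Dam-Lamin A profile and by 2.03 in the Dam-Lap2b profile. Over the 4122 LAD edges of that list with values, the median step was 0.85 and 0.72, and 1.09% and 1.65% of edges had a step at least as large. At the listed end the step was 1.22 and 0.69, reached or exceeded at 31.4% and 52.6% of edges. With the edges of the Dam-Lap2b list the steps were 2.82 and 2.10 at the start and 1.69 and 0.94 at the end, against medians of 0.95 and 0.60 over 4558 edges. A further fall lay beyond both listed ends, from the bin at 37950001 to the bin at 37960001. It went from −0.91 to −1.68 in the Dam-Lamin A profile and from −0.23 to −2.83 in the Dam-Lap2b profile. The windows outside the listed ends stopped before the bin at 37960001 or took it in as their last. The ranking of start and end therefore depends on where the lists place the end. The shorter gap between LADs had a median of 46.0 kb and 50 kb in the lists. At many edges the outside 50 kb can therefore reach into the next LAD, which lowers the step. The protocadherin LAD, with a shorter gap of 2.14 Mb, is free of this, so its standing among edges partly restates its isolation.

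Bin by bin, the Dam-Lamin A profile passed from below −1 at 36960001 to above 1 at 36980001, a distance of 20 kb. At the other end its last bin above 1 was at 37900001 and its first below −1 at 37960001, 60 kb further. In the Dam-Lap2b profile these distances were 60 kb and 180 kb. The levels of 1 and −1 were chosen after the values had been seen. Between 37920001 and 37960000 the 4 bins took middle values, −0.58, 0.011, −0.25 and −0.91 in the Dam-Lamin A profile and −0.83, 0.059, −0.063 and −0.23 in the Dam-Lap2b profile. At 37960001 they dropped to −1.68 and −2.83, the latter the lowest bin of the locus in that profile. The far end of gamma, from there to 38020000, had a highest bin of −1.44 in the Dam-Lamin A profile and of −1.32 in the Dam-Lap2b profile. In gene order the C-type genes Pcdhgc3, Pcdhgc4 and Pcdhgc5 and the constant exons come last in gamma, followed by Diaph1. Whether any of these lie in the bins from 37960001 to 38020000 was not tested.

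The flanks lay low on both sides. The 92 bins of the left flank in neither list averaged −1.08 ± 0.71 in the Dam-Lamin A profile and −1.31 ± 0.54 in the Dam-Lap2b profile. The 100 bins of the right flank averaged −0.88 ± 0.59 and −1.14 ± 0.47. Over all bins in neither list the genome averaged −0.99 ± 0.77 and −0.89 ± 0.77, so the flank means lay within 1 SD of those of unlisted sequence. The right flank had 7 bins above 0 in the Dam-Lamin A profile, the highest at 0.14, and 0 of 100 in the Dam-Lap2b profile. The lowest alpha bin of the Dam-Lap2b profile, at 0.24, lay above every bin in neither list of both flanks, of which the highest stood at 0.064. In the Dam-Lamin A profile the lowest alpha bin, at 0.48, was below the highest such flank bin, at 0.65.

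The 7 bins before the interval that lay in both lists had means of 1.92 ± 0.46 in the Dam-Lamin A profile, above the 1.67 of alpha, and of 1.17 ± 0.34 in the Dam-Lap2b profile, below the 1.33 of alpha. Both gaps were smaller than the SD over bins. In the Dam-Lamin A profile the 50 kb before the start of the interval averaged 2.03 and the 50 kb after it 1.94. In the Dam-Lap2b profile the same windows averaged 1.29 and 1.74.

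Beside other listed sequence the locus was not extreme in level. Its 86 bins in both lists averaged 1.39 ± 0.66 and 1.12 ± 0.57, against 1.29 ± 0.69 and 1.34 ± 0.54 over the 122701 such bins of the genome. Over the 4064 bins in both lists on the rest of chromosome 18 the means were 1.28 ± 0.67 and 1.25 ± 0.56. The whole LAD averaged 1.43 in the Dam-Lamin A profile over the Dam-Lamin A list's borders. Among the 784 LADs of that list of at least 500 kb, 257 (32.8%) were at least as high. In the Dam-Lap2b profile it averaged 1.12, and 535 of the 784 (68.2%) were at least as high. Over the borders of the Dam-Lap2b list, with 739 LADs of at least 500 kb, the LAD averaged 1.42 in the Dam-Lamin A profile, where 314 (42.5%) were at least as high. It averaged 1.09 in the Dam-Lap2b profile, and 607 (82.1%) were at least as high. The isolated LADs of the Dam-Lamin A list, 11 with this one, had medians of 0.92 and 0.67.

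The reads behind the ratios changed more in the reference than in the fusions. Per fragment, alpha and beta together held a mean of 24.6 recovered reads of Dam-Lamin A and 21.5 of Dam-Lap2b, against 15.2 and 12.8 in the flanks outside the lists. These were 1.62 and 1.67 times the flank values. The reference held 8.0 reads per fragment in alpha and beta against 37.7 in the flanks, a fold of 0.21. Over the genome the same held between fragments in both lists and in neither, with 1.44 and 1.40 times for the fusions and 0.24 for the reference. In both settings the fold was farther from 1 in the reference than in either fusion.

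Within gamma the reference differed too. Fragments in neither list held a mean of 48.0 reference reads, and those in both lists held 10.7. The excess was at the far end, from 37960001 on, with 74.3 reference reads per fragment, while the other fragments in neither list held 12.9. With all fragments in neither list pooled, fusion reads differed less from those in both lists. Dam-Lamin A held 16.9 against 19.2 reads per fragment, and Dam-Lap2b 13.3 against 18.4. At the far end Dam-Lamin A held 22.3 and Dam-Lap2b 14.5. In the other fragments in neither list Dam-Lamin A held 9.7 and Dam-Lap2b 11.7. There the fusions differed more from the fragments in both lists than the reference did, with 12.9 against 10.7 for the reference. The bin at 37960001 alone held 4109 reference reads, 1351 of Dam-Lamin A and 593 of Dam-Lap2b. The ratio of the summed reads there was −1.52 (95% exact binomial interval −1.61 to −1.43) and −2.77 (−2.90 to −2.65) on the log2 scale. These intervals cover counting error only, and amplified reads without molecular identifiers are not independent molecules. Medians per fragment in alpha and beta were 13, 10 and 3 for Dam-Lamin A, Dam-Lap2b and the reference, so single fragments were imprecise and only bins are read here.

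**Figure D4:**
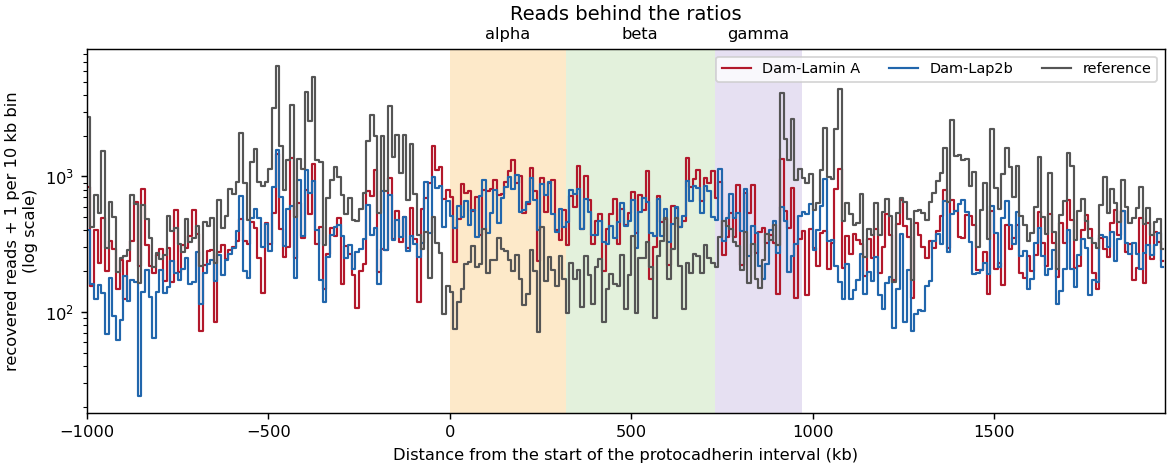
Recovered reads plus 1 per 10 kb bin (y axis, log scale) of Dam-Lamin A, Dam-Lap2b and the reference against distance in kb from the start of the protocadherin interval (x axis), with alpha, beta and gamma shaded. The reference lies below both fusions in most bins of alpha and beta, at a mean of 8.0 reads per fragment. It lies above them in most flank bins outside the LAD lists, at a mean of 37.7 reads per fragment in neither list.

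The Dam-Lamin A profile was the higher over the locus, but the order depended on how fragments were weighted. Dam-Lamin A minus Dam-Lap2b averaged 0.27 ± 0.53 over the 97 bins, and 69 bins (71.1%) had the higher value in the Dam-Lamin A profile, against 44.2% of bins in the genome. The difference was 0.34 ± 0.49 in alpha, 0.20 ± 0.49 in beta and 0.30 ± 0.63 in gamma. It was nearly the same in the flanks, 0.27 ± 0.67 and 0.26 ± 0.61, within the SD over bins of the locus value. Weighted by fragment length the difference became −0.081 over the locus, −0.072 in alpha, −0.12 in beta and −0.031 in gamma. Centring each profile on its genome-wide median raised it to 0.47 over the locus.

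Fragment length moved with that difference in the locus and in the genome. Fragments under 200 bp, 47.1% of those in the locus against 42.0% in the genome, differed by 0.58 in the locus and by 0.23 in the genome. Fragments of 200 to 1000 bp differed by 0.26 and −0.11. Fragments over 1000 bp differed by −0.69 and −0.82. In the flanks the 3 classes differed by 0.43, 0.22 and 0.22, so the sign did not turn with length there. The part of fragment length in the difference between the profiles was not tested further. The median fragment of the locus was 218 bp long, against 258 bp in the genome, and 3.50% of its fragments came out at 0 reads in all 3 libraries, against 2.75% in the genome.

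Few single bins differed by more than 1. Dam-Lamin A exceeded Dam-Lap2b by more than 1 in 6 of 97 bins, 4 of them in gamma, beside 4.15% in the genome. The reverse held in 0 of 97, beside 7.08%. The flanks had more such bins, with 14 of 100 on the left and 11 of 100 on the right for Dam-Lamin A, and 2 and 1 for the reverse. The largest excess of Dam-Lamin A, 1.41, was in the bin at 37910001, where it stood at 0.91 and Dam-Lap2b at −0.49. This was the single locus bin in the Dam-Lap2b list alone, and there the profile of that label was the lower. The next were the bins at 37300001 (1.37) and 37770001 (1.29). Dam-Lap2b most exceeded Dam-Lamin A in the bins at 37470001 (−0.92), 37370001 (−0.91) and 37600001 (−0.89), all in beta. From summed reads, the Dam-Lamin A ratio at 37300001 was 1.29 (1.12 to 1.46) and that of Dam-Lap2b 1.07 (0.91 to 1.24). At 37910001 the ratios were 0.86 (0.63 to 1.10) and −0.46 (−0.75 to −0.17). Both ratios of a bin share its reference reads, so overlap of these intervals does not compare the fusions. Dam-Lamin A and Dam-Lap2b held 977 and 879 reads in the former bin and 415 and 173 in the latter.

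**Figure D5:**
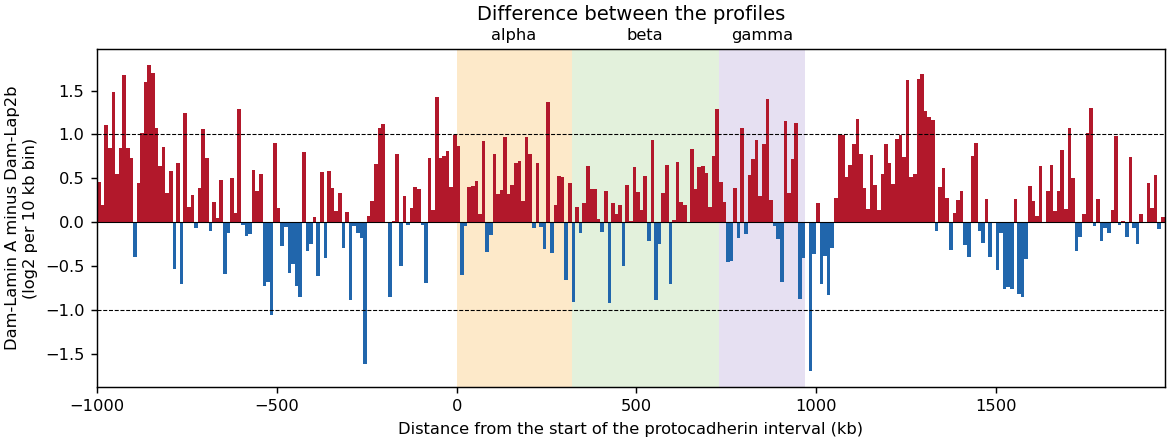
Dam-Lamin A minus Dam-Lap2b per 10 kb bin on the log2 scale (y axis) against distance in kb from the start of the protocadherin interval (x axis), with dashed lines at 1 and −1 and alpha, beta and gamma shaded. Red bins are higher in the Dam-Lamin A profile, 69 of the 97 in the locus, 66 of 100 in the left flank and 65 of 100 in the right flank.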

How the data were processed

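DNA adenine methylation was profiled in 3 samples, 1 for each group of the labels. For each fusion a profile and a LAD list were used, and no separate file of Dam alone was analysed here. The profiles hold log2 values per fragment as deposited, and the LAD lists hold start and end positions only. Bowtie and mm9 are named in the submitters' processing notes, while the counting, normalization and domain caller are not given in the sources used here. Neighbouring fragments lie 3 bp apart in 99.99% of cases.

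The values have the form of a constant (0.085 and 0.022, the most frequent value of each profile) plus log2((fusion + 1)/(reference + 1)). The smallest whole numbers giving both values, with denominators up to 5000, were found for 99.997% of fragments and taken as lower bounds of reads. The added 1 draws log2 values of low fragments towards the constant. No count test was run.

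Fragments were assigned to bins of 10 kb and to regions by their middle, and a bin was in a LAD when its middle was. Regions were compared by means, SDs, ranges and counts without a test. The bins named were the extremes of each subcluster and profile and the 3 largest differences in each direction, as well as every listed LAD and every run of at least 100 kb in the window. Binning and recovery were tested on simulated data. Regions and measures were chosen with earlier results of these data known. Python 3.11.15, numpy 2.4.6, pandas 2.3.3 and scipy 1.17.1 were used. Alternatives were other bin sizes, averages, fragment filters, a centring on the genome, shorter subclusters, shorter flanks and other LAD criteria.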

Additional observations from a re-analysis of the deposited data

Results flagged for a closer look

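Over the whole genome, bins listed only for Lamin A less bins listed only for Lap2b gave opposite signs, −0.42 in the Dam-Lamin A profile and 0.42 in the Dam-Lap2b profile. The difference was not tested, since each group has 1 sample. In the locus 1 bin, at 37910001, lay in 1 list alone, and every value given for 1 fusion rests on the labels as deposited. At the other edge of the LAD, before the interval, the bin at 36970001 also lay in the Dam-Lap2b list alone. It stood at 0.69 in the Dam-Lamin A profile and at −0.045 in the Dam-Lap2b profile, so there too the profile of that label was the lower.

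At the start of the interval, inside the LAD, the 50 kb after minus the 50 kb before was −0.081 in the Dam-Lamin A profile, while the Dam-Lap2b profile gave 0.45. This difference was not tested either.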

How the results depend on the processing

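Of 332 values recomputed under other settings, 309 stayed within their tolerance, 20 moved out of it and 3 changed sign beyond it. Another 3 changed sign within it. These were the difference between the profiles in gamma, −0.031 with length weights, and the Dam-Lamin A mean of gamma, which went from −0.049 to 0.017 with medians and to 0.0040 with subclusters shortened by 20 kb. The tolerance was the exact binomial interval for shares. For means and for differences between the profiles it was the main value plus or minus the half-width of the order-statistic interval of the median over bins. For differences between regions the half-widths of both regions were combined as the root of their summed squares. These tolerances take bins as independent draws, which neighbouring bins are not, so they serve as a yardstick and do not measure an error. In gamma the tolerance was wide, from −1.04 to 0.94 for the Dam-Lamin A mean and from 32.8 to 74.4% for the share above 0. The 309 include values that their setting could not change. Every bin of the locus and flanks held at least 5 fragments, so asking for at least 1 left each value unchanged. Centring subtracts the same value from every bin of a profile, so differences between regions could not change. All 48 shares of bins in the LAD lists stayed within theirs. Those of alpha and beta were 100% under every setting, because the LAD extends beyond both. Merging LADs under 25 kb apart could not change a share, since the nearest other LAD lay 2.14 Mb away. Weighting by fragment length turned the difference between the profiles to −0.081 in the locus, −0.072 in alpha and −0.12 in beta. It also raised the Dam-Lap2b mean to 1.08 in the locus and 1.59 in alpha, and the locus minus the right flank to 2.23. Ratios of summed reads raised the Dam-Lap2b mean to 1.08 in the locus and 1.61 in alpha, and the locus minus the left and right flank to 2.33 and 2.40. The share of beta bins above 0 in the Dam-Lap2b profile became 100% with bins of 20 kb, medians, length weights and summed reads.

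Centring each profile on its genome-wide median lowered the means to 0.85 (Dam-Lamin A) and 0.38 (Dam-Lap2b) in the locus, to 1.11 and 0.70 in beta, and to 0.86 (Dam-Lap2b) in alpha. It raised the difference between the profiles to 0.47 in the locus, 0.54 in alpha, 0.41 in beta and 0.50 in gamma, and lowered the share of Dam-Lap2b bins above 0 to 73.2% in the locus and 20.8% in gamma. The cause of these moves was not tested, beyond the subtraction itself in the centred values. No paired analysis was possible because each group has 1 sample. With a median of 3 reference reads per fragment in alpha and beta, depth limits values below the size of a bin.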
